A study of Danio rerio with 15 samples.

Results

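The comparison set zebrafish larvae exposed to acetochlor at 7.8 µM against larvae exposed to tefluthrin at 2.3 µM, with 3 libraries in each group, taken by their sample labels from the 15 libraries of the series. All larvae were wild type of the NHGRI-1 strain, and each library came from pooled whole larvae collected at 72 h post fertilisation, with polyadenylated RNA selected for sequencing. Both exposures began at 48 h post fertilisation, after hatching, and lasted until collection. The column headers of the tefluthrin group give nanomolar and the labels give micromolar; the labels were followed. The 3 control libraries served to say which compound stood apart from control, and 3 libraries each at acetochlor 780 nM and tefluthrin 60 nM gave values in other larvae, and entered the filter and the estimate of spread of the shared model. The concentrations of the compounds were not matched. Neither the labels nor the files say whether replicates came from separate clutches, so p-values measure the spread between these libraries, which may be technical.

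Acetochlor is a chloroacetanilide herbicide that blocks the elongation of very-long-chain fatty acids in plants. Tefluthrin is a pyrethroid insecticide, a class that slows the closing of voltage-gated sodium channels in nerve cells. A larva of this age still lives on its yolk, while muscle, nerve, heart and liver are already at work, and RNA from the whole animal mixes all of these. In such a mixture a lower transcript level cannot be told apart from fewer of the cells that hold the transcript. The files list Ensembl transcripts and pair none of them with a gene, so each transcript is named by its identifier, no role is given and the larvae could not be checked against tissue markers.

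Library totals ran from 17495267 to 21489659 counts at acetochlor 7.8 µM, from 18246025 to 18940850 at tefluthrin 2.3 µM and from 19886430 to 24576528 in control. On the first principal component of the 9 libraries, which held 28.1% of the variance, tefluthrin 2.3 µM lay between 108 and 123. Acetochlor lay between -59.3 and -51.6 there and control between -62.9 and -56.2, so that these groups overlapped. On the second component, with 12.4% of the variance, replicate III of acetochlor (69.4) and of tefluthrin (-79.4) lay apart from replicates I and II of their own groups.

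Between the compounds, 10192 of 35865 transcripts tested (28.4%) differed at an adjusted p-value under 0.05 in edgeR's quasi-likelihood test, and are said to be called. Of these, 5265 (14.7% of those tested) were higher with acetochlor and 4927 (13.7%) were lower. The median log2 fold change, acetochlor minus tefluthrin, was 0.74 in the former and -0.73 in the latter. Both medians stayed at these values when the transcripts at 0 in 1 of the groups were set to the bound that a floor of 3 counts per library allows. The median absolute log2 fold change was 0.73 over the called transcripts and 0.45 over all tested.

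Most differences were moderate in size. Among transcripts higher with acetochlor, 1790 differed by under 1.5-fold, 1855 by 1.5- to 2-fold, 1262 by 2- to 4-fold and 358 by 4-fold or more. Among those lower with acetochlor the counts were 1742, 1567, 1153 and 465. In all, 3238 transcripts (9.03% of those tested) were called with a fold of at least 2. The 3 libraries of each compound did not overlap in 9984 of the called transcripts, while 15580 of all tested transcripts (43.4%) did not overlap.

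**Figure D1:**
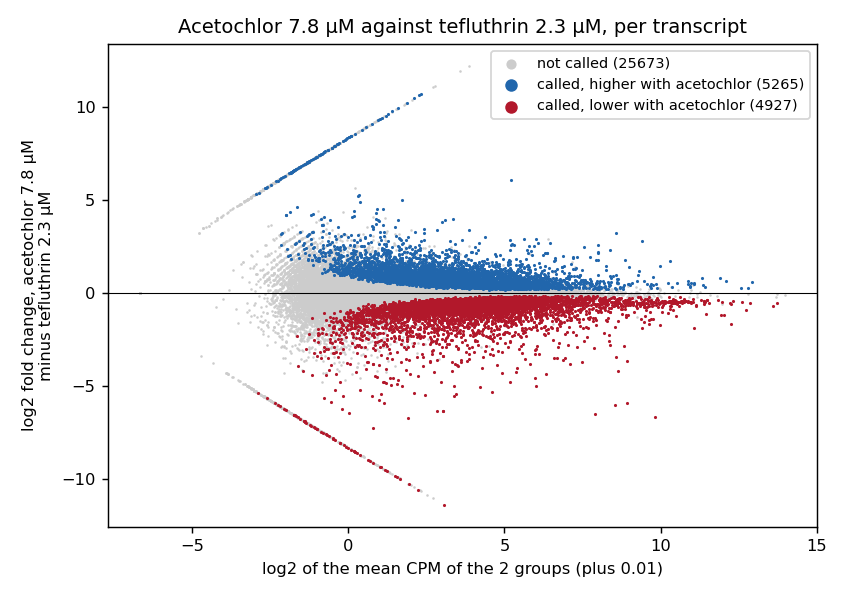
Difference between acetochlor 7.8 µM and tefluthrin 2.3 µM for each tested transcript, as log2 fold change (vertical axis) against the log2 of the mean level of the groups in CPM (horizontal axis); 5265 transcripts called higher with acetochlor are blue, 4927 called lower are red and the others grey. The straight edges at upper left and lower left are transcripts at 0 in all libraries of 1 group, for which the fitted fold depends on the prior count.

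The direction of the calls varied with abundance. CPM are counts relative to library size, here scaled by the trimmed mean of M-values (TMM), and are not per length. Of the 110 called transcripts with a mean over 1000 CPM, 90 were lower and 20 higher with acetochlor. In the range of 1 to 10 CPM, 2464 were higher and 1590 lower. This balance depended on the scaling: with library totals alone, the median log2 fold change of all tested transcripts shifted from 0.02 to 0.22, giving 8370 calls higher and 3062 calls lower with acetochlor. The tilt with abundance was present under that scaling too, with 27 higher and 75 lower over 1000 CPM and 3857 higher and 1024 lower at 1 to 10 CPM. The TMM factor was 1.05 ± 0.0236 at acetochlor 7.8 µM (SD, n = 3), 0.916 ± 0.0167 at tefluthrin 2.3 µM and 1.01 ± 0.0219 in control.

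The control libraries were then used to ask which compound had moved each transcript. Of the 10192 called transcripts, 8482 (83.2%) were apart from control at tefluthrin 2.3 µM and not at acetochlor 7.8 µM. Of the remainder, 16 were apart from control at acetochlor alone, 10 at both compounds in the same direction and 4 at both in opposite directions. The other 1680 (16.5%) were called against control at neither compound. Over all tested transcripts, 10688 (29.8%) were called at tefluthrin 2.3 µM and 38 (0.106%) at acetochlor 7.8 µM. With so few calls, the adjustment demanded a smaller unadjusted p at acetochlor than at tefluthrin. A transcript not called at acetochlor is therefore not shown to be unchanged there, and tefluthrin alone describes calls only. The contrasts with control share the control libraries, and the contrast between the compounds is the test that their changes differ.

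The sizes of the changes come from the same fit and libraries as the counts, so they describe the split and are not separate support for it. Over the called transcripts the median absolute log2 difference from control was 0.71 at tefluthrin 2.3 µM and 0.13 at acetochlor 7.8 µM. Over all tested transcripts these medians were 0.46 and 0.17. Tefluthrin lay further from control than acetochlor in 9566 of the called transcripts (93.9%), against 74% of all tested. Of the 3238 transcripts with a fold of at least 2 between the compounds, 2812 were called against control at tefluthrin alone and 11 at acetochlor alone. In the 1680 transcripts called against control at neither compound, control lay between the compounds in 1631 (97.1%), against 40.3% of all tested. Choosing transcripts called between the compounds and not against control favours this position, so it is not a separate result. Their median absolute differences from control were 0.25 for acetochlor and 0.35 for tefluthrin.

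**Figure D2:**
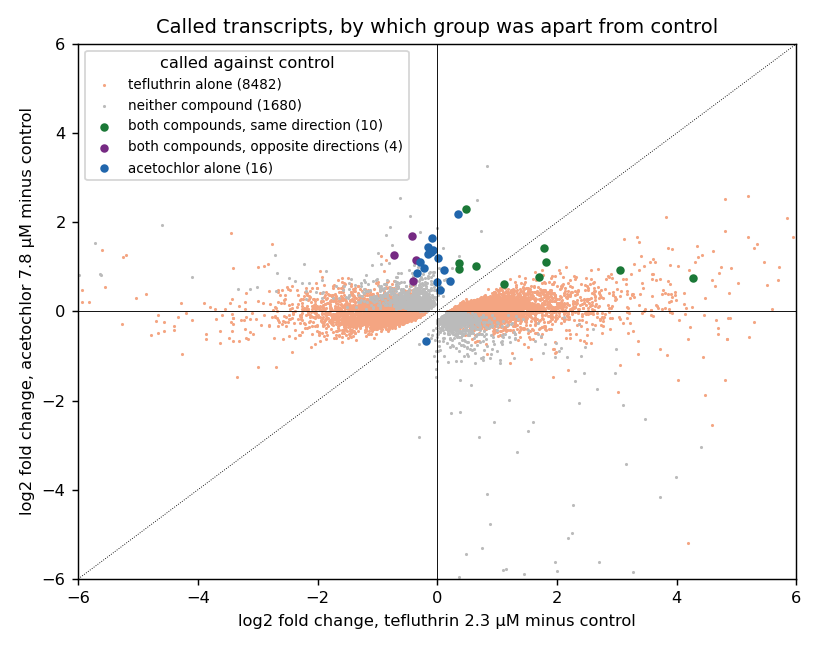
Log2 fold change from control at tefluthrin 2.3 µM (horizontal axis) and at acetochlor 7.8 µM (vertical axis) for the 10192 transcripts called between the compounds, coloured by the group that was apart from control; the dotted line marks equal changes, and 127 transcripts lie beyond the axes, which end at 6. Most points (8482, tefluthrin alone) spread along the horizontal axis, while 16 blue points were apart from control at acetochlor alone.

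The transcripts described first were those to which whole reads were assigned, with a level of at least 1 CPM at acetochlor 7.8 µM, tefluthrin 2.3 µM and control. Fractional estimates arise where reads are divided between transcripts that share sequence. Of the tested transcripts, 7595 had estimates that were exactly whole as deposited, with a tolerance of 0, in all 15 libraries, of which 40.8% were called, against 25.1% of the 28270 others. The 5 largest differences in each direction are described here.

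ENSDART00000078154.5 had 108, 113 and 154 CPM in the libraries of tefluthrin 2.3 µM and 3.50, 4.30 and 3.60 CPM in those of acetochlor 7.8 µM. Control libraries held 2.33, 3.58 and 6.59 CPM, so that acetochlor lay inside the control range and tefluthrin far above it. The log2 fold change between the compounds was -5.04 (SE 0.359, edgeR adjusted p = 8.53e-07), and tefluthrin minus control was 4.89. At tefluthrin 60 nM the libraries held 77.5, 76.6 and 55.3 CPM and at acetochlor 780 nM 8.31, 4.79 and 10.1 CPM, again without overlap.

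ENSDART00000138955.3 had 81.0, 107 and 131 CPM at tefluthrin 2.3 µM against 6.74, 8.74 and 6.67 CPM at acetochlor 7.8 µM. Control lay at 4.20, 4.40 and 3.61 CPM, below all libraries of both groups. The difference between the compounds was -3.85 (SE 0.257, edgeR adjusted p = 4.98e-07). Acetochlor minus control was 0.86 and not called (edgeR adjusted p = 0.464). Its level at tefluthrin 60 nM, 94.2 ± 10.2 CPM (SD, n = 3), was close to that at 2.3 µM, 106 ± 25.1 CPM, and the tefluthrin concentrations did not differ beyond their spread (edgeR adjusted p = 0.666).

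ENSDART00000055428.4 showed a step at each tefluthrin concentration. It held 281, 235 and 254 CPM at 2.3 µM and 65.2, 66.7 and 64.5 CPM at 60 nM, against 5.81, 5.12 and 7.94 CPM in control. At acetochlor 7.8 µM it held 19.2, 25.2 and 9.74 CPM, above the control libraries in all 3, and acetochlor minus control was 1.52 (edgeR adjusted p = 0.0668). The log2 fold change between the compounds was -3.83 (SE 0.269, edgeR adjusted p = 7.76e-07).

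ENSDART00000159626.2 held 237, 182 and 229 CPM at tefluthrin 2.3 µM, 21.7, 17.6 and 13.7 CPM at acetochlor 7.8 µM and 14.0, 15.6 and 13.1 CPM in control. Acetochlor overlapped control and tefluthrin did not, with -3.61 between the compounds (SE 0.154, edgeR adjusted p = 2.07e-08). ENSDART00000082466.6 held 17.7, 11.3 and 11.2 CPM at tefluthrin 2.3 µM, against 1.17, 1.19 and 0.847 CPM at acetochlor 7.8 µM and 1.12, 0.973 and 1.27 CPM in control. It differed by -3.64 between the compounds (SE 0.215, edgeR adjusted p = 2.02e-07). All 5 of these transcripts were called in the same direction between acetochlor 780 nM and tefluthrin 60 nM. In either direction, 35% of the 4927 transcripts called lower with acetochlor were called there, against 14.5% of all tested.

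In the other direction the largest differences were smaller. ENSDART00000056095.6 held 86.3, 119.9 and 56.7 CPM at acetochlor 7.8 µM and 9.53, 13.2 and 12.2 CPM at tefluthrin 2.3 µM. Control libraries spread from 44.5 to 99.0 CPM and overlapped acetochlor, so tefluthrin was the group apart. The log2 fold change was 2.91 between the compounds (SE 0.333, edgeR adjusted p = 3.99e-05) and -2.54 for tefluthrin minus control. At tefluthrin 60 nM the level was 34.3 ± 4.76 CPM (SD, n = 3), lower than control by a log2 difference of -0.98 (edgeR adjusted p = 0.0456).

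ENSDART00000067160.4 held 1244, 1454 and 843 CPM at acetochlor 7.8 µM and 135, 100.5 and 274 CPM at tefluthrin 2.3 µM, with control at 1058, 794 and 1276 CPM. The difference between the compounds was 2.80 (SE 0.403, edgeR adjusted p = 0.000232). The tefluthrin 60 nM libraries lay at 1226, 1071 and 866 CPM, among the controls, and the step to 2.3 µM was -2.63 (edgeR adjusted p = 0.000726). ENSDART00000163640.2 showed the same arrangement, with 63.7 ± 16.0 CPM at acetochlor 7.8 µM, 8.98 ± 4.53 at tefluthrin 2.3 µM, 53.4 ± 14.5 in control and 56.4 ± 9.04 at tefluthrin 60 nM (SD, n = 3). Its log2 fold change was 2.82 between the compounds (SE 0.368, edgeR adjusted p = 0.00011).

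ENSDART00000010496.8 held 17.3, 18.3 and 14.3 CPM at acetochlor 7.8 µM, 1.70, 2.78 and 2.86 CPM at tefluthrin 2.3 µM and 16.0, 11.6 and 20.0 CPM in control. It differed by 2.76 between the compounds (SE 0.240, edgeR adjusted p = 4.17e-06). ENSDART00000164665.2 was the least certain, with 9.93, 11.1 and 5.45 CPM at acetochlor, 0.292, 0.422 and 3.15 CPM at tefluthrin and 3.71, 1.02 and 9.37 CPM in control. Its control libraries overlapped both groups, and neither compound was called against control. Its difference of 2.76 between the compounds (SE 0.909, edgeR adjusted p = 0.0381) lost its call in 6 of the 18 alternatives run. None of these 5 transcripts was called between the lower concentrations, where edgeR adjusted p ranged from 0.0903 to 0.982. Of the 5265 transcripts called higher with acetochlor, 30.8% were called there, close to the 35% of those lower with acetochlor, against 14.5% of all tested.

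**Figure D3:**
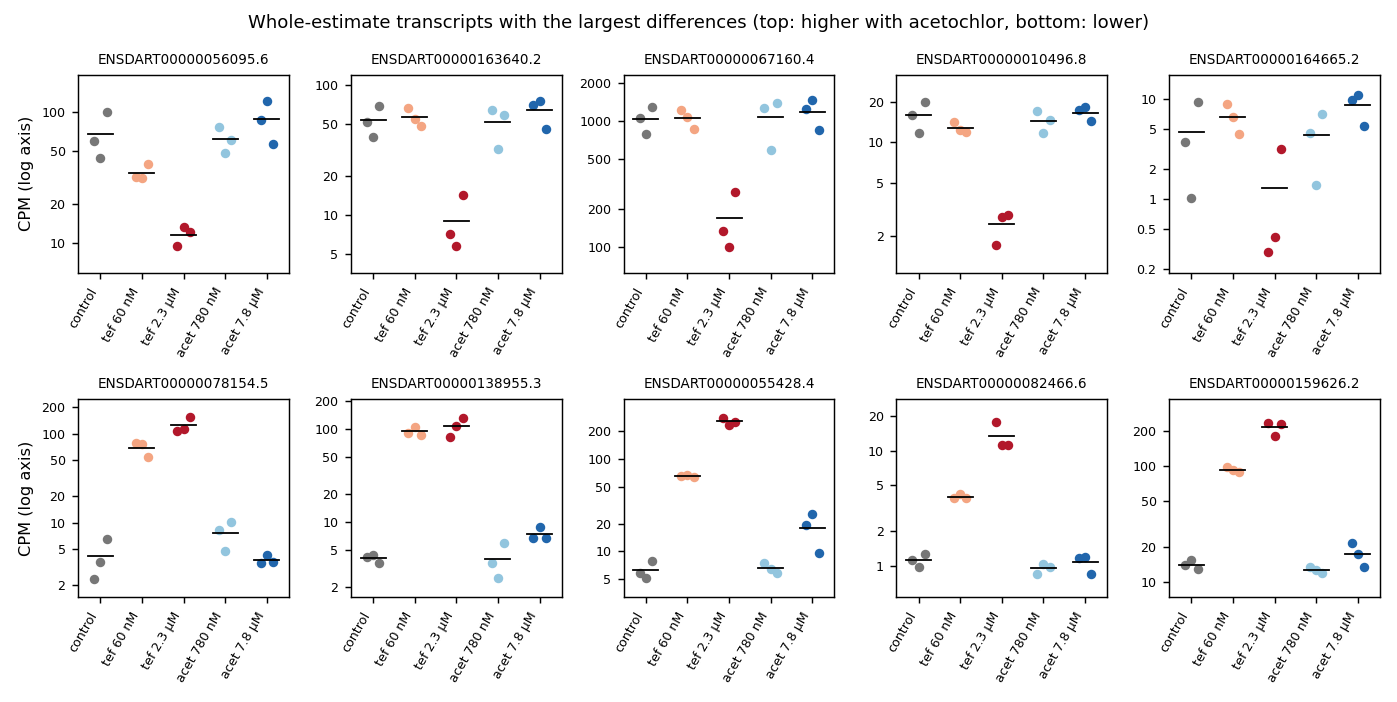
Levels in CPM (log axis) of the 10 whole-estimate transcripts with the largest differences, in the 3 libraries of each of the 5 groups; points are libraries and bars are means, and the upper row is higher with acetochlor and the lower row lower. In 9 of the 10 panels the group called apart from control was tefluthrin 2.3 µM, and in ENSDART00000164665.2 neither compound was.

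The smallest p-values belonged to transcripts raised by tefluthrin. ENSDART00000099528.4 held 109, 113 and 119 CPM at tefluthrin 2.3 µM, 30.6, 32.0 and 29.1 CPM at acetochlor 7.8 µM and 28.6, 28.7 and 29.2 CPM in control. The difference between the compounds was -1.89 (SE 0.0557, edgeR adjusted p = 2.43e-09). ENSDART00000060990.5 held 239, 225 and 219 CPM at tefluthrin, 35.6, 34.9 and 28.6 CPM at acetochlor and 33.4, 36.0 and 38.1 CPM in control, a difference of -2.78 (SE 0.0877, edgeR adjusted p = 3.72e-09). ENSDART00000170934.2, with fractional estimates, differed by -3.53 (SE 0.104, edgeR adjusted p = 2.43e-09). In each of the 3 the tefluthrin 2.3 µM libraries lay far above those of acetochlor 7.8 µM and control. For ENSDART00000170934.2 acetochlor 7.8 µM, at 16.5, 14.9 and 14.7 CPM, lay above control at 10.8, 11.5 and 11.75 CPM. That difference was not called (0.44, edgeR adjusted p = 0.215). The tefluthrin 60 nM libraries of ENSDART00000170934.2 overlapped those at 2.3 µM, and the step between the concentrations was 0.02 (edgeR adjusted p = 0.922).

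Among transcripts higher with acetochlor the smallest p-values also went with a change at tefluthrin. ENSDART00000169821.2 held 64.3, 65.6 and 88.4 CPM at acetochlor 7.8 µM against 1.46, 0.724 and 1.03 CPM at tefluthrin 2.3 µM. Control lay at 101, 110.2 and 78.045 CPM and tefluthrin 60 nM at 0.732, 0.611 and 1.41 CPM, so that both tefluthrin groups were near 1 CPM. The difference between the compounds was 6.07 (SE 0.304, edgeR adjusted p = 6.59e-08), and its estimates were fractional. ENSDART00000156407.3 held 29.1, 29.5 and 26.7 CPM at acetochlor and 4.62, 5.49 and 5.21 CPM at tefluthrin, a difference of 2.48 (SE 0.119, edgeR adjusted p = 4.62e-08), with 32.3 ± 4.30 CPM in control (SD, n = 3). ENSDART00000113097.4 differed by 1.58 (SE 0.0785, edgeR adjusted p = 6.22e-08).

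The called transcripts of highest CPM differed by small folds. ENSDART00000075465.5 had 11573, 11325 and 10252 CPM at acetochlor 7.8 µM and 15875, 16949 and 15314 CPM at tefluthrin 2.3 µM, with 12389 ± 393 in control (SD, n = 3). The log2 fold change was -0.54 (SE 0.0943, edgeR adjusted p = 0.000956). ENSDART00000123003.3 and ENSDART00000023156.7 differed by -0.73 and -0.54 in the same direction. ENSDART00000012644.7 was higher with acetochlor by 0.57 and ENSDART00000093613.3 and ENSDART00000093625.3 each by 0.25 (edgeR adjusted p = 0.025, 0.0364 and 0.0499). The last of these lost its call in 11 of 18 alternatives, ENSDART00000093613.3 in 8 of 18 and ENSDART00000012644.7 in 4 of 17. ENSDART00000012644.7 held 9240 ± 1329 CPM at acetochlor 7.8 µM and 10756 ± 672 in control (SD, n = 3). It held 6225 ± 1067 CPM at tefluthrin 2.3 µM and, further from control, 4280 ± 751 at tefluthrin 60 nM.

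Few of the differences went with a called change at acetochlor. Of the 16 transcripts apart from control at acetochlor alone, 14 were raised and 2 lowered. ENSDART00000159326.2 held 1511, 1599 and 1288 CPM at acetochlor 7.8 µM, against 565, 513 and 526 CPM at tefluthrin 2.3 µM and 552, 563 and 619 CPM in control. Tefluthrin overlapped control and acetochlor lay above both. With library totals as the only scaling, its tefluthrin change was also called (-0.25, edgeR adjusted p = 0.0297). The log2 fold change was 1.46 between the compounds (SE 0.0797, edgeR adjusted p = 1.19e-07) and 1.34 for acetochlor minus control (edgeR adjusted p = 1.15e-05). At acetochlor 780 nM it held 619.9 ± 33.2 CPM (SD, n = 3). Between that group and control edgeR called 0 of all tested transcripts (0%), with 909 (2.53%) at an unadjusted p under 0.05.

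ENSDART00000134921.3 held 172, 165 and 117 CPM at acetochlor 7.8 µM, 39.8, 42.3 and 54.1 CPM at tefluthrin 2.3 µM and 51.0, 41.9 and 52.0 CPM in control. Its libraries at tefluthrin 60 nM, with 76.8, 81.0 and 77.1 CPM, lay above control and above tefluthrin 2.3 µM. The change from control was thus called at acetochlor 7.8 µM (1.65, edgeR adjusted p = 0.00105) and at tefluthrin 60 nM (0.70, edgeR adjusted p = 0.00999) and not at tefluthrin 2.3 µM (-0.09, edgeR adjusted p = 0.744). The direct test between the tefluthrin concentrations gave -0.79 (edgeR adjusted p = 0.00494). Of the 16 transcripts, 4 were called higher and 1 lower than control at tefluthrin 60 nM, against 8.47% and 7.92% of all tested. Between the tefluthrin concentrations 5 were called lower and 1 higher at 2.3 µM, against 10% and 9.08% of all tested.

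ENSDART00000187384.1 and ENSDART00000047050.8 rose from control to 36.7 ± 6.62 and 41.4 ± 4.35 CPM at acetochlor 7.8 µM (SD, n = 3). At tefluthrin 2.3 µM they had 13.5 ± 1.77 and 15.2 ± 2.31 CPM, against 15.04 ± 0.921 and 16.1 ± 1.70 CPM in control. Between the compounds both differed by 1.45 (edgeR adjusted p = 4.64e-06 and 8.64e-06). The lowered transcripts were ENSDART00000125092.4, with 58.3, 51.3 and 52.2 CPM at acetochlor, 75.4, 77.7 and 71.8 CPM at tefluthrin and 88.1, 89.1 and 78.4 CPM in control (-0.47 between the compounds, edgeR adjusted p = 0.000788), and ENSDART00000181235.1. For ENSDART00000125092.4 the acetochlor change of -0.66 had an edgeR adjusted p of 0.00605, which became 0.0597 without acetochlor replicate II. With library totals as the only scaling its tefluthrin change was also called (-0.32, edgeR adjusted p = 0.0118). At tefluthrin 60 nM its libraries held 45.0, 55.0 and 47.3 CPM, lower than control by a log2 difference of -0.80 (edgeR adjusted p = 2.73e-05). A fall was thus called at tefluthrin 60 nM too. Between acetochlor 780 nM and tefluthrin 60 nM it was called in the opposite direction (0.58, edgeR adjusted p = 0.000335).

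The 4 transcripts called against control in opposite directions were all higher at acetochlor and lower at tefluthrin 2.3 µM. ENSDART00000010282.9, with whole estimates, held 205, 199 and 152 CPM at acetochlor 7.8 µM, 43.2, 44.2 and 52.9 CPM at tefluthrin 2.3 µM and 76.4, 67.9 and 87.1 CPM in control. The 3 groups did not overlap. The log2 difference was 1.99 between the compounds (SE 0.161, edgeR adjusted p = 2.34e-06), 1.27 for acetochlor minus control and -0.72 for tefluthrin minus control (edgeR adjusted p = 0.00605 and 0.00381). The acetochlor change lost its call without acetochlor replicate II (edgeR adjusted p = 0.0545) and without control replicate I (edgeR adjusted p = 0.0514).

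ENSDART00000081663.6 held 136, 150.3 and 113 CPM at acetochlor 7.8 µM, 35.5, 30.2 and 26.3 CPM at tefluthrin 2.3 µM and 39.4, 46.7 and 37.4 CPM in control, while its libraries at tefluthrin 60 nM lay at 62.4, 66.3 and 60.4 CPM. It was thus above control at the lower and below it at the higher tefluthrin concentration, and the step from 60 nM to 2.3 µM was -1.04 (edgeR adjusted p = 0.000486). Its change at tefluthrin 2.3 µM (-0.42, edgeR adjusted p = 0.0467) was negative in all 19 fits and called in 7 of them. ENSDART00000145251.2 had 38.0 ± 5.17 CPM at acetochlor 7.8 µM, 13.4 ± 0.469 at tefluthrin 2.3 µM and 17.2 ± 0.507 in control (SD, n = 3), and ENSDART00000035558.8 had 19.1 ± 0.583, 8.97 ± 0.928 and 12.0 ± 0.335 CPM. Between the compounds these differed by 1.5 and 1.09 (edgeR adjusted p = 3.67e-07 and 1.35e-05). The change of ENSDART00000035558.8 at acetochlor (0.67, edgeR adjusted p = 0.0381) was called in 11 of 19 fits.

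Replicate III was the lowest of the acetochlor 7.8 µM libraries in all 18 transcripts that were higher than control there at acetochlor alone or with tefluthrin in the opposite direction. The share of all tested transcripts in which replicate III was lowest was not computed. It was the lowest in ENSDART00000056095.6 (86.3, 119.9 and 56.7 CPM) and the highest in ENSDART00000169821.2 (64.3, 65.6 and 88.4 CPM). Neither of these was called against control at acetochlor. Replicate III was also the acetochlor library that lay apart on the second principal component. Without it, the acetochlor change was still called in all 8 of the named transcripts higher than control. The change was also larger in all 8, which leaving out the lowest library fixes in advance. It went from 1.34 to 1.43 in ENSDART00000159326.2 and from 1.27 to 1.39 in ENSDART00000010282.9. Without acetochlor replicate III, 38 transcripts were apart from control at acetochlor alone and 16 in opposite directions, in place of 16 and 4. Without acetochlor replicate II these were 10 and 1. Without control replicate I they were 12 and 0, and DESeq2 on all libraries gave 137 and 63.

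**Figure D4:**
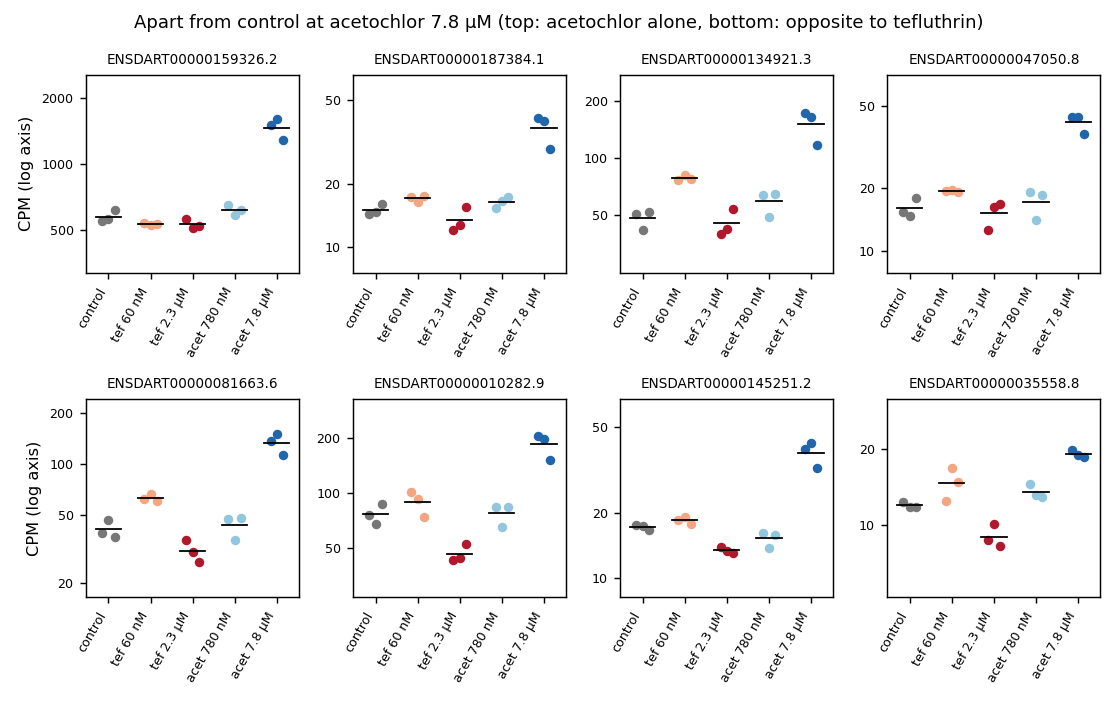
Levels in CPM (log axis) of 8 transcripts apart from control at acetochlor 7.8 µM, in the 3 libraries of each of the 5 groups; points are libraries and bars are means. The upper row was called against control at acetochlor alone and the lower row at both compounds in opposite directions, and replicate III, the right-hand point, is the lowest acetochlor 7.8 µM library in all 8 panels.

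The 10 transcripts changed in the same direction at both compounds were all higher than control, with 6 higher at tefluthrin 2.3 µM than at acetochlor 7.8 µM and 4 lower. ENSDART00000022060.8, picked after its values were seen as the widest gap, averaged 190 CPM at tefluthrin 2.3 µM, 16.6 CPM at acetochlor 7.8 µM and 9.86 CPM in control. Its log2 fold change between the compounds was -3.51 (edgeR adjusted p = 8.09e-09). At the other end, ENSDART00000087724.6 averaged 33.6 CPM at acetochlor, 9.62 CPM at tefluthrin and 6.86 CPM in control, 1.80 higher with acetochlor (edgeR adjusted p = 3.59e-07).

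The largest fitted folds belonged to transcripts with fractional estimates that were at 0 in all libraries of 1 group, for which only a bound can be given. The floor of 3 counts per library averaged 0.147 CPM at acetochlor 7.8 µM and 0.176 CPM at tefluthrin 2.3 µM, and covers counting error only. ENSDART00000079226.6 was at 0 at tefluthrin 2.3 µM and had 12.5, 10.6 and 6.88 CPM at acetochlor 7.8 µM, at least 56.9-fold higher (edgeR adjusted p = 0.0198), with 12.9, 14.9 and 8.93 CPM in control. Its tefluthrin 60 nM libraries held 0, 0 and 12.2 CPM, and the bounds do not cover such differences between libraries of 1 group. ENSDART00000177048.2 was also at 0 at tefluthrin 2.3 µM, against 5.08, 7.70 and 9.42 CPM at acetochlor and 13.0, 12.3 and 12.0 CPM in control, at least 42.0-fold higher with acetochlor (edgeR adjusted p = 0.000148). ENSDART00000160682.2, ENSDART00000173379.2 and ENSDART00000153695.3 followed, at least 49.3-, 34.1- and 30.1-fold higher. Control held 11.2, 6.66 and 2.06 CPM of the first and 0, 4.76 and 6.51 CPM of the second. ENSDART00000153695.3 was at 0 in control too, and neither compound was called against control for it. It held 3.50, 0 and 2.98 CPM at tefluthrin 60 nM and 4.26, 2.33 and 0 CPM at acetochlor 780 nM. ENSDART00000160682.2 was at 0 in all tefluthrin 60 nM libraries. ENSDART00000079226.6 lost its call in 5 and ENSDART00000153695.3 in 9 of 17 alternatives, and the other 3 each in 1.

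On the other side, ENSDART00000184859.1 had 22.5, 16.6 and 10.995 CPM at tefluthrin 2.3 µM and was at 0 in acetochlor 7.8 µM and in control, with 7.90 CPM in 1 library of acetochlor 780 nM, at least 113-fold lower with acetochlor (edgeR adjusted p = 0.0415). ENSDART00000146845.2 was at 0 at acetochlor 7.8 µM against 7.72, 11.1 and 9.56 CPM at tefluthrin, at least 64.3-fold lower (edgeR adjusted p = 0.000201), and the tefluthrin 60 nM libraries held 11.4, 9.88 and 10.8 CPM. ENSDART00000126243.3 and ENSDART00000147487.2 were at least 51.8- and 42.6-fold lower. Control held 0, 7.12 and 7.11 CPM of the former, which was at 0 in all tefluthrin 60 nM libraries, and 0, 0 and 1.15 CPM of the latter. The latter held 19.4, 0 and 9.86 CPM at tefluthrin 60 nM. Neither compound was called against control for these transcripts, so control does not say which compound had moved them. Of 17 alternatives, ENSDART00000184859.1 and ENSDART00000147487.2 lost their calls in 8 each and ENSDART00000126243.3 in 9. ENSDART00000181235.1 was at 0 at acetochlor 7.8 µM, with 7.25, 7.91 and 2.69 CPM at tefluthrin and 5.68, 6.40 and 7.503 CPM in control, at least 40.4-fold lower than tefluthrin (edgeR adjusted p = 6.61e-05). Their levels are uncertain where reads were divided between transcripts. Of 34 transcripts with at most 3 counts in every library of one compound and at least 30 in every library of the other, 1 had whole estimates.

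Libraries at the lower concentrations set the same compounds against each other in other larvae, at other concentrations that were again not matched. They share the filter and the estimate of spread with the contrast at the higher concentrations, since 1 model was fitted to all libraries. Between acetochlor 780 nM and tefluthrin 60 nM, 5195 of all tested transcripts (14.5%) were called. Of the 10192 transcripts called at the higher concentrations, 3348 were called there (32.8% of the former and 64.4% of the latter). In 3123 of them the direction was the same and in 225 it was opposite. With each contrast fitted to its own 6 libraries, 8941 transcripts were called at the higher concentrations, of which 1984 were called at the lower ones in the same direction and 100 in the opposite one. Among transcripts not called at the higher concentrations, 1847 (7.19%) were called at the lower ones, 1290 with the same sign at both and 557 with the opposite one.

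Set against the 14.5% of all tested transcripts called at the lower concentrations, the share was higher for tefluthrin alone and not for neither compound. The share called at the higher concentrations rose with abundance, from 5.2% under 1 CPM to 82.7% over 1000 CPM. All tested transcripts are therefore not a baseline matched in abundance. Of the 8482 transcripts apart at tefluthrin alone, 3135 (37%) were called between the lower concentrations, 3014 in the same direction and 121 in the opposite one. Of the 10 apart at both compounds in the same direction, 7 were called, 5 in the same direction. Of the 1680 apart at neither compound, 204 (12.1%) were called, 104 in the same and 100 in the opposite direction. Of the 20 transcripts apart at acetochlor alone or in opposite directions, 2 were called between the lower concentrations, 0 in the same direction. These are too few to set against the share of all tested. The lower concentrations differ by compound as well, so that no dose relation between the compounds is given by this.

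In each library the called transcripts can be summarised by their median log2 distance from the control mean. For the 5265 transcripts higher with acetochlor it was -0.74, -0.67 and -0.68 at tefluthrin 2.3 µM and -0.26, -0.24 and -0.23 at tefluthrin 60 nM. It was 0.03, 0.02 and -0.02 at acetochlor 7.8 µM and 0.02, -0.07 and 0.00 at acetochlor 780 nM. For the 4927 lower with acetochlor it was 0.75, 0.67 and 0.68 at tefluthrin 2.3 µM, 0.29, 0.28 and 0.29 at tefluthrin 60 nM, and between -0.02 and 0.06 in the acetochlor libraries. Over all tested transcripts it lay between -0.01 and 0.01 in every library, a position that the TMM scaling largely sets. With library totals alone, the median log2 fold change between acetochlor 7.8 µM and tefluthrin 2.3 µM over all tested transcripts was 0.22. The values at acetochlor 7.8 µM and tefluthrin 2.3 µM describe the choice of transcripts, and those at the lower concentrations come from libraries outside that contrast that entered the shared estimate of spread.

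The share of each library's counts held by these transcripts, computed without TMM, showed the same order. The lists themselves were chosen with TMM, and the shares at acetochlor 7.8 µM and tefluthrin 2.3 µM again describe that choice. The transcripts lower with acetochlor held 35.6% ± 0.3 of the counts at acetochlor 7.8 µM (SD, n = 3), 36.3% ± 0.153 in control, 36.2% ± 1.25 at acetochlor 780 nM, 41.3% ± 0.321 at tefluthrin 60 nM and 49.9% ± 0.569 at tefluthrin 2.3 µM. Those higher with acetochlor held 23.4% ± 0.153, 23.2% ± 0.115, 23.2% ± 0.611, 18.7% ± 0.231 and 13.3% ± 0.252 in the same groups. In both lists the acetochlor and control groups lay within 1 percentage point of each other, tefluthrin 60 nM was intermediate, and no tefluthrin library overlapped them.

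**Figure D5:**
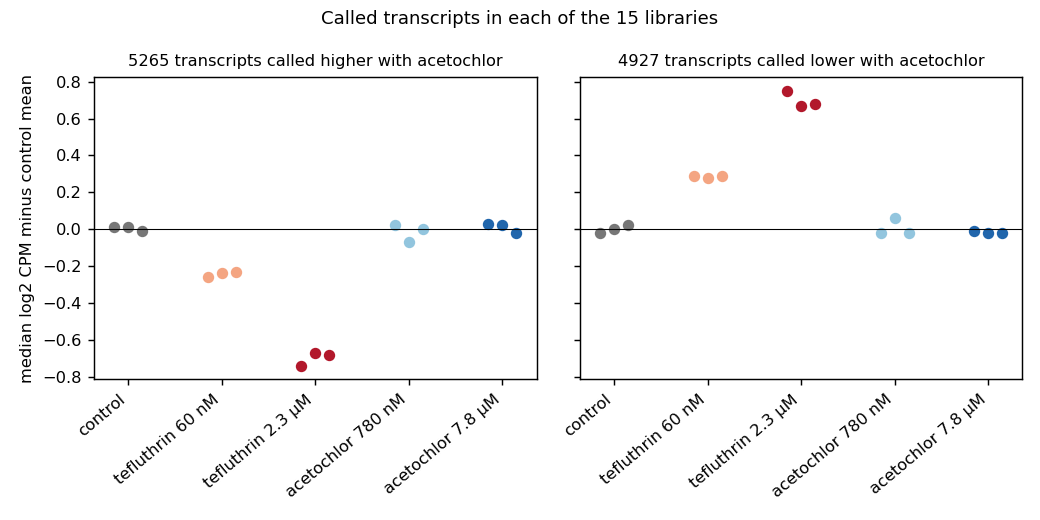
Median log2 CPM minus the control mean (vertical axis) over the 5265 transcripts called higher with acetochlor (left) and the 4927 called lower (right), for each of the 15 libraries in 5 groups; each point is 1 library. Acetochlor libraries lie between -0.07 and 0.06, tefluthrin 60 nM between -0.26 and -0.23 on the left and 0.28 and 0.29 on the right, and tefluthrin 2.3 µM furthest from 0.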

How the data were processed

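RNA from 15 pools of whole larvae was sequenced. The authors deposited 1 table per library with an estimated count for each of 64995 Ensembl transcripts, not scaled for depth; Salmon 1.6.0 and GRCz11 are named in the submitters' processing notes. The annotation release is not given in the sources used here, and 0 transcripts matched the gene name tables, so counts were not summed per gene and planned gene lists were not evaluated.

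Estimated counts were rounded. edgeR's filterByExpr by group left 35865 transcripts, and 1 quasi-likelihood model with group as its only term (TMM scaling, glmQLFit, glmQLFTest) was fitted to all 15 libraries. Tests were two-sided with Benjamini-Hochberg adjustment over all tested transcripts. SE is the size of the log2 fold change divided by the square root of F. Log2 CPM used a prior count of 2. The software was edgeR 4.0.16, DESeq2 1.42.0 and limma 3.58.1 under R 4.3.3, with matplotlib 3.10.9 under Python 3.11.15.

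Named transcripts were called, did not overlap between the compounds and averaged at least 10 counts in the higher group. They were, in each direction, the 5 of largest fold, the 5 of largest fold with whole estimates and at least 1 CPM in 3 groups, the 3 of smallest p, the 3 of highest CPM and up to 4 apart from control at acetochlor alone, and 4 called in opposite directions. Members and rules were chosen with earlier results of these data known. Libraries of a group differed by more than sampling noise (chi-square per degree of freedom 2.98 to 22.6), and each counted as 1 replicate. Alternatives were other scalings, filters, tests, thresholds and libraries. The labels name no batch.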

Additional observations from a re-analysis of the deposited data

Results flagged for a closer look

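The change from control differed between acetochlor 7.8 µM and tefluthrin 2.3 µM in 10192 transcripts, by the direct edgeR test of the difference. In 4 of them, ENSDART00000081663.6, ENSDART00000010282.9, ENSDART00000145251.2 and ENSDART00000035558.8, both compounds were called against control in opposite directions. Of 19 fits, the tefluthrin change of ENSDART00000081663.6 was called in 7 and the acetochlor change of ENSDART00000035558.8 in 11. Groups of 3 libraries are too small for a test of single outlying libraries.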

How the results depend on the processing

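The model of all 15 libraries gave 10192 calls, and only the 6 libraries compared gave 8941 (4267 higher and 4674 lower with acetochlor). Only transcripts with whole estimates gave 3666 (1821 higher and 1845 lower with acetochlor), of which 3117 were apart from control at tefluthrin alone, 7 at acetochlor alone, 2 in opposite directions and 527 at neither; fewer transcripts were tested there. At least 1 in absolute log2 fold change gave 3238 calls (1620 and 1618), with 2503 at tefluthrin alone, 722 at neither, and 0 each at both in the same and in opposite directions. Here the fold cut was applied to the contrasts with control as well. Without it there, 2812 of the 3238 were at tefluthrin alone and 408 at neither. The 4 transcripts in opposite directions had tefluthrin changes of -0.36 to -0.72, which cannot pass this cut. An adjusted p under 0.01 gave 6441 (3190 and 3251), with 5368 at tefluthrin alone, 1056 at neither, 3 in the same and 1 in opposite directions. Library totals as the only scaling gave 8370 higher and 3062 lower, with 25 at acetochlor alone, 23 in the same and 15 in opposite directions. DESeq2 gave 137, 91 and 63 in these 3 classes, and only the libraries compared gave 5 in the same direction. With the replicate block, 9492 transcripts were called between the compounds and 2 in opposite directions. Same-numbered deviations of the compounds correlated between -0.0707 and 0.000739, and those of unlike number between -0.0384 and 0.0457. No pairing by replicate number was seen, which does not exclude a shared origin of same-numbered libraries.

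Of calls repeated at the lower concentrations in the same and the opposite direction, the counts became 1984 and 100 with only the libraries compared, 1290 and 114 with whole estimates, 777 and 12 at the fold of 2 and 1813 and 64 at the stricter p, and DESeq2 gave 383 opposite. Leaving out 1 replicate at a time gave 7949 to 9049 calls (3935 to 4540 higher, 3895 to 4522 lower), with 6614 to 7633 at tefluthrin alone, 10 to 38 at acetochlor alone, 3 to 32 in the same direction, 0 to 16 in opposite directions and 937 to 2409 at neither. The repeats at the lower concentrations then numbered 2679 to 2807 in the same and 147 to 239 in the opposite direction. DESeq2 size factors in edgeR, upper-quartile factors, limma voom, no filter and a stricter filter moved none of these counts by over 1.5 times. Where a count moved other than by the fold cut itself, the cause was not tested.

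Of the 41 named transcripts, 24 were called between the compounds under every alternative run and 17 lost the call under at least 1, and 0 reversed. Transcripts with few counts are limited by depth, and fractional estimates carry an assignment error that the files do not give.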
